A study of Mus musculus with 4 samples.

Results

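The 42 genes described here encode proteins that drive cells into mitosis, attach chromosomes to the spindle, move them and condense them. They were taken by symbol from the 23420 gene symbols counted in cervical motor neurons (MNs), and all 42 were found. Grouped by role, 11 are kinases and checkpoint genes, 13 belong to the kinetochore and centromere, 9 are spindle motors with their partners, and 9 belong to condensin and the chromosome axis. The rule names the genes by symbol and uses no measured value, but the list was chosen with earlier results of these data known.

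The RNA-seq compared MNs made from WT E14 mouse embryonic stem cells (mESCs) with MNs made from *Patz1* KO cells, which were derived from E14 with CRISPR/Cas9. Each genotype had 2 libraries, and replicates stand for independent differentiations. Both genotypes were grown as embryoid bodies for 2 days and then patterned with 1 µM retinoic acid and 0.5 µM SAG, an agonist of Smoothened that turns on Hedgehog signaling. Several *Patz1* KO lines were generated from single clones, and the labels do not say which line gave which library, so a property of 1 line and the loss of *Patz1* cannot be told apart. The sample titles name ESCs while the source and the cell type name MNs. The MN genes *Mnx1*, *Isl1*, *Lhx3* and *Chat* were counted in all 4 libraries, and the stem cell gene *Pou5f1* did not exceed 0.470 CPM in any of them. Other pluripotency genes were counted at more, with *Nanog* between 1.90 and 4.72 CPM and *Klf4* between 0.619 and 3.84 CPM. With these values the libraries were read as MN cultures.

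PATZ1 is a zinc finger protein that binds G-rich DNA. In mitosis, CDK1 with cyclin B starts chromosome condensation, the kinetochore links each centromere to microtubules of the spindle, and the checkpoint holds the anaphase promoting complex (APC/C) in check until all chromosomes are attached. Genes for these proteins are transcribed in the G2 and M phases of the cell cycle and are shut off when progenitors of the spinal cord leave the cycle and become MNs. Many of their promoters carry a cell cycle genes homology region (CHR), which is read by the DREAM and MuvB complexes, together with CCAAT boxes, which are bound by NF-Y.

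The total count was between 14769104 and 15728158 for WT libraries and between 17402342 and 23881522 for *Patz1* KO libraries, and replicates differed by more than counting noise. *Patz1* itself stood at 91.5 and 94.3 CPM (counts scaled to the TMM library size) in WT and at 47.6 and 42.6 CPM in *Patz1* KO, so its transcripts were lower but still counted. Its log2 fold change, *Patz1* KO over WT, was -1.04 (SE 0.095, adjusted p = 1.10e-07, Benjamini-Hochberg, edgeR quasi-likelihood test). The same test was fitted on all 14269 genes left by the low-count filter of edgeR, and a gene is called here at an adjusted p below 0.05. These p-values rest on 2 libraries per group.

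All 42 mitotic genes passed the filter, and 39 of them were lower in *Patz1* KO MNs, whereas 23.8% of all genes tested were called lower. None of the 42 was called higher (0 at an unadjusted p below 0.05 too, and 0 with DESeq2's Wald test), whereas 24.1% of all genes tested were, and 47.9% were called in either direction. The median log2 fold change of the 42 genes was -0.79, and that of all genes tested was -0.0014 with quartiles of -0.34 and 0.34. The 39 genes that fell kept between 44.2% and 72.1% of their mean WT level, and the 3 that were not called were *Mad2l1*, *Cenpi* and *Ncapd2*. In a bulk culture, fewer dividing cells and less of each mRNA per dividing cell cannot be told apart.

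Summed over the 42 genes, the level was 3812 and 4030 CPM in WT and 2317 and 2351 CPM in *Patz1* KO. As a share of all counts this was 0.384% and 0.407% in WT and 0.235% and 0.227% in *Patz1* KO. For 39 of the 42 genes both *Patz1* KO libraries lay below both WT libraries, which was the case for 37.2% of all genes tested. Most changes, but not all, were near the common median of -0.79, which the 95% interval held for 29 of the 42. By size, 5 genes fell by more than 1 on the log2 scale and 32 genes had a log2 fold change between -1 and -0.5. The intervals of 4 genes lay wholly below that median and those of 9 wholly above it, among them the 3 genes not called. In edgeR's test against a minimum absolute log2 fold change of 1, 0 of the 42 passed, with 2 at an unadjusted p below 0.05. With DESeq2's Wald test the count of genes lower in *Patz1* KO was again 39.

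**Figure D1:**
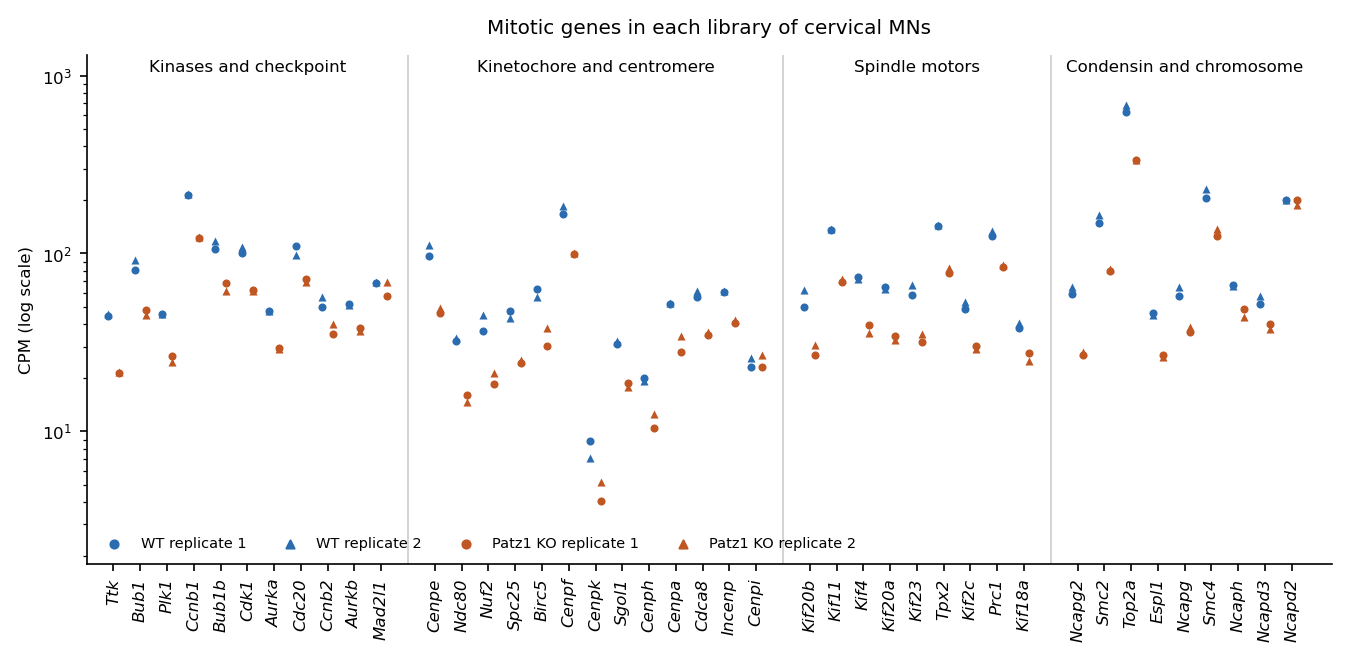
Level of each of the 42 mitotic genes in each library, in CPM on a log scale, ordered by role and then by log2 fold change. Points are single libraries, WT in blue and Patz1 KO in orange. The orange points lie below the blue ones for 39 genes, and they overlap for Mad2l1, Cenpi and Ncapd2.

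The promoters were examined next, because the members moved together. The choice of members used no sequence. CHR and CCAAT are known elements of such promoters, so a high share was foreseeable and says nothing on the loss of *Patz1*. RefSeq promoter windows on GRCm38 (250 bases before to 50 after the annotated start) matched 37 of the 42 genes, in 41 windows. *Aurkb*, *Incenp*, *Kif20a*, *Tpx2* and *Smc4* had no entry. The CHR letters TTTGAA, searched on both strands, were found in 26 of the 41 windows (63.4%), against 17.9% of all 32851 windows and 11.7% of the 13318 windows of genes tested here. By gene, 25 of the 37 held them, and in 22 of those 25 the nearest match started within 50 bases of the transcription start. The windows end 50 bases after the start, and this distance was not read for other genes. CCAAT, also searched on both strands, was found in 73.2% of the members' windows and in 37.4% of all windows, and CHR letters and CCAAT occurred together in 51.2% of the members' windows and 6.95% of all windows. Matches were counted separately, also where 2 of them shared a base. A match is a description of letters and says nothing on binding or on the cause of a change.

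By role group, CHR letters were found in 7 of 10 genes with a window among kinases and checkpoint, in 5 of 12 of the kinetochore and centromere, in 6 of 7 spindle motors and in 7 of 8 of condensin and the chromosome axis. Among all genes tested with a window, from which the members were not removed, 2400 were lower in *Patz1* KO and 2568 higher. CHR letters were in the windows of 17.1% of the lower and 12.6% of the higher ones. The variant TTCGAA was in 9.76% of the members' windows and 1.56% of all windows. The G-rich string GGGAGGG was searched because PATZ1 binds G-rich DNA. It was in 9.76% of the members' windows, against 22.0% of all windows and 29.4% of those of genes tested. The 4 members that held it were *Cenpa*, *Cenpf*, *Cenpk* and *Ncapg*. It was in 29.5% of the windows of genes lower and 32.1% of those of genes higher. In the related lists read below, its share of windows went from 8.0% (further kinetochore genes) to 54.5% (regulators of mitotic entry). That these letters are absent from the other windows says nothing on PATZ1.

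The following stretches of 30 bases show the CHR letters (capitals) in genes of all roles, each cut to hold 12 bases on each side. The flanks differ, and the first base of the letters lies between 123 bases before (*Ncapd2*) and 31 bases after (*Plk1*) the start. They are RefSeq sequences on GRCm38, written 5′ to 3′ on the strand that spells TTTGAA, which for *Ttk* and *Ndc80* is the strand opposite to the gene. The last one is *Ncapd2*, which was not called, and the other genes all fell.
*Cdk1*, chr10:69352910-69352939, minus strand: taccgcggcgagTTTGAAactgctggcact
*Plk1*, chr7:122159453-122159482, plus strand: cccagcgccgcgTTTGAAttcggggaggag
*Ttk*, chr9:83834684-83834713, minus strand: tccggaaacacgTTTGAAatttccccgctg
*Cenpf*, chr1:189688067-189688096, minus strand: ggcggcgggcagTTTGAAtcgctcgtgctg
*Ndc80*, chr17:71526811-71526840, plus strand: aacccaaggcggTTTGAAttttaaagtttc
*Kif23*, chr9:61946780-61946809, minus strand: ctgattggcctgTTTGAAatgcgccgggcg
*Kif4*, chrX:100626072-100626101, plus strand: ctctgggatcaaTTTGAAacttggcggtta
*Prc1*, chr7:80294434-80294463, plus strand: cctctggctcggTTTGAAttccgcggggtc
*Ncapg2*, chr12:116405406-116405435, plus strand: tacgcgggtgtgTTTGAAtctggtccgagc
*Espl1*, chr15:102296254-102296283, plus strand: tcactagggataTTTGAAaggaggtgctgg
*Ncapd2*, chr6:125191692-125191721, minus strand: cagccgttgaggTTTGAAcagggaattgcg

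Longer stretches are given for 3 genes that fell and for *Mad2l1* and *Cenpi*, which were not called. Each is the 120 bases just before the RefSeq start on GRCm38, on the strand of the gene, with CHR letters, their variant and CCAAT in capitals in either orientation (TTCAAA and ATTGG are the reverse complements). *Ccnb2* showed 3 CCAAT boxes spaced along the stretch, *Kif11* a CCAAT box upstream of a CHR, and *Top2a* all of these elements. The stretches of *Mad2l1* and *Cenpi* held none of them. Among genes that fell, the same 120 bases held none of them for *Cenph*, *Cenpk*, *Ndc80*, *Nuf2*, *Birc5*, *Sgol1*, *Kif18a*, *Kif20b*, *Ncaph* and *Ncapd3*. For each gene the first listed start was used. *Ncapd2*, also not called, held both CHR letters and CCAAT in the 200 bases before its start.
*Ccnb2*, chr9:70421555-70421674, minus strand: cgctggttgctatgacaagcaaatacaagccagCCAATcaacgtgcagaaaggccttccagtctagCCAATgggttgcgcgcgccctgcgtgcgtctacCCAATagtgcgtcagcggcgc
*Kif11*, chr19:37376262-37376381, plus strand: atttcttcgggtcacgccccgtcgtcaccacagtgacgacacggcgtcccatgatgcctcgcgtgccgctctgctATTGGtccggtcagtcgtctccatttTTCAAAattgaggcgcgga
*Top2a*, chr11:99024190-99024309, minus strand: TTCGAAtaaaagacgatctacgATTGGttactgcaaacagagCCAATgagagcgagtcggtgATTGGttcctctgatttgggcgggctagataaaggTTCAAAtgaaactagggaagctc
*Mad2l1*, chr6:66535101-66535220, plus strand: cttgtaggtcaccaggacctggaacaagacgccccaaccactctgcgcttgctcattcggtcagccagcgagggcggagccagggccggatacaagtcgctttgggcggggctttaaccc
*Cenpi*, chrX:134307964-134308083, plus strand: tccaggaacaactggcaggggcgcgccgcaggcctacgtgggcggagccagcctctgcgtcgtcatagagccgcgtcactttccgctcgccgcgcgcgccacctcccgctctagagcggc

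Over its whole window *Mad2l1* held none of these letters, *Cenpi* held CCAAT after the start, and *Ncapd2* held both CHR letters and CCAAT. The genes not called thus included windows with and without CHR letters. *Nuf2*, *Birc5*, *Kif18a* and *Ncaph*, which had log2 fold changes of -1.04, -0.82, -0.59 and -0.51, held neither CHR letters nor CCAAT in their windows.

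**Figure D2:**
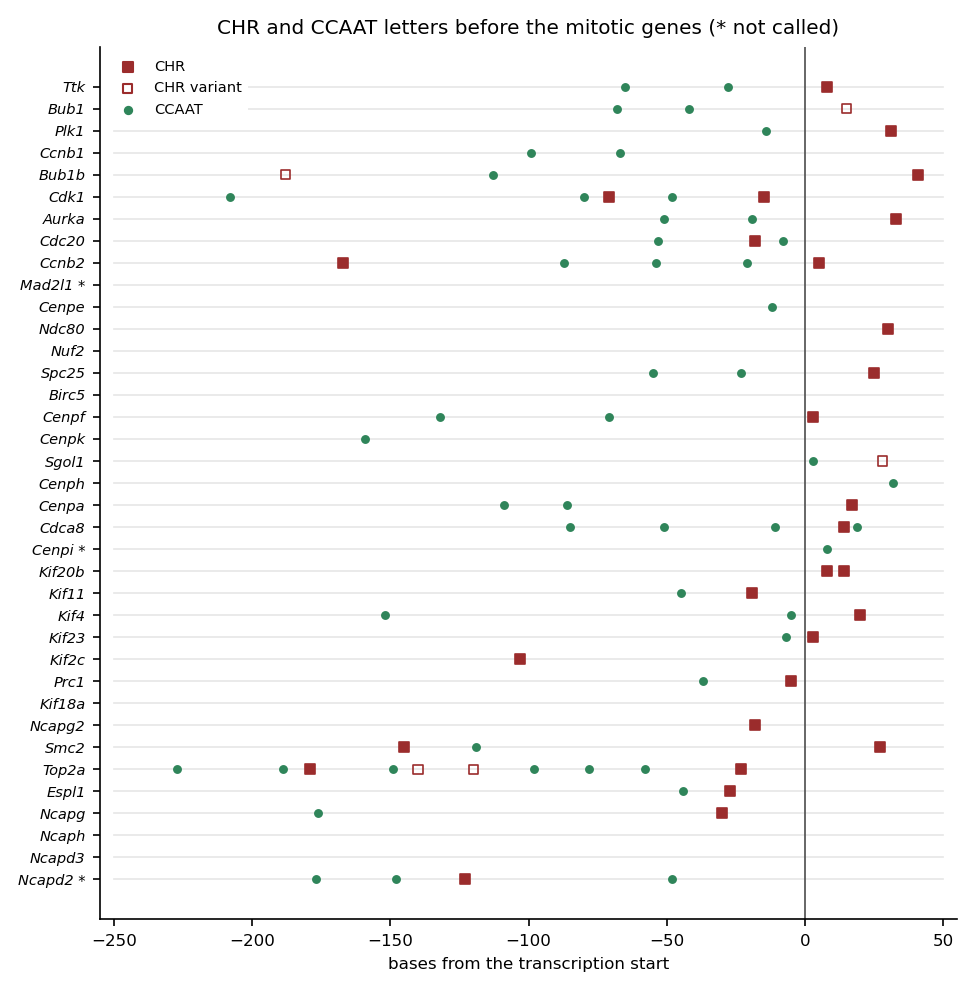
Position of CHR letters (filled squares), their variant (open squares) and CCAAT (circles) in the first listed RefSeq window of each of the 37 matched genes, in bases from the transcription start, ordered as in the plot of levels. Most filled squares lie within 50 bases of the start, and the stars mark the 3 genes that were not called.

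Among the kinases and checkpoint genes, 10 of 11 were lower in *Patz1* KO MNs, with a median log2 fold change of -0.76. *Ttk* (GRCm38, chromosome 9, 83834689 to 83872389) encodes MPS1, the kinase that starts checkpoint signaling at unattached kinetochores. It was counted at 44.7 and 45.5 CPM in WT and at 21.3 and 21.5 CPM in *Patz1* KO. This was the largest fall of the group, with a log2 fold change of -1.08 (SE 0.10, adjusted p = 1.84e-07, Benjamini-Hochberg, edgeR quasi-likelihood test). *Bub1*, a kinase that recruits other checkpoint proteins, stood at 80.8 and 91.8 CPM in WT and 48.1 and 45.1 CPM in *Patz1* KO (log2 fold change -0.89, adjusted p = 9.18e-07, same edgeR test). *Plk1*, the Polo kinase of mitotic entry and centrosome maturation, stood at 45.7 and 45.9 CPM in WT and 26.7 and 24.6 CPM in *Patz1* KO (log2 fold change -0.84, adjusted p = 3.03e-06, same edgeR test). In all 3 genes every *Patz1* KO library lay below every WT library, as was the case for 37.2% of all genes tested. These 3 were named for their falls, so that separation is no further result.

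*Ccnb1*, cyclin B1, was the most abundant of this group per length of transcript, at 85.8 CPM per kb of exon in WT and 49.3 CPM per kb in *Patz1* KO. Its libraries were at 212 and 215 CPM in WT and at 122 and 123 CPM in *Patz1* KO, which gave a log2 fold change of -0.80 (SE 0.084, adjusted p = 5.81e-07, same edgeR test). Its kinase partner *Cdk1* went from 101 and 109 CPM to 62.2 and 61.5 CPM with a log2 fold change of -0.76, and the checkpoint gene *Bub1b* had -0.78. The smaller falls of the group were those of the centrosomal kinase *Aurka* (-0.70), the APC/C activator *Cdc20* (-0.56), cyclin B2 *Ccnb2* (-0.51) and *Aurkb* (-0.47), the catalytic subunit of the chromosomal passenger complex. Each of these passed the test, and *Aurkb* kept the highest share of its WT level of the 39 genes that fell.

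*Mad2l1* (chromosome 6, 66535390 to 66547220) encodes MAD2, the protein that binds and holds CDC20 while chromosomes are unattached. It was at 68.4 and 69.2 CPM in WT and at 58.0 and 69.6 CPM in *Patz1* KO, so the second *Patz1* KO library lay above both WT libraries. Its log2 fold change was -0.11 with a 95% interval from -0.32 to 0.10 (adjusted p = 0.378, Benjamini-Hochberg, edgeR quasi-likelihood test). Without *Patz1* KO replicate 2 it was called lower (-0.24, adjusted p = 0.0263), and without *Patz1* KO replicate 1 its direction turned (0.020).

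Of the kinetochore and centromere genes, 12 of 13 were lower in *Patz1* KO MNs, with a median log2 fold change of -0.80. *Cenpe* (chromosome 3, 135212537 to 135273611), a kinesin of the kinetochore that carries chromosomes to the metaphase plate, was at 96.4 and 111 CPM in WT and at 46.5 and 49.4 CPM in *Patz1* KO. The log2 fold change of -1.11 (SE 0.098, adjusted p = 6.60e-08, same edgeR test) was the largest fall of this group. The next falls were all in the NDC80 complex, the main microtubule coupler of the outer kinetochore. *Ndc80* was at 32.1 and 33.6 CPM in WT and at 16.0 and 14.7 CPM in *Patz1* KO (log2 fold change -1.09, adjusted p = 6.22e-07, same edgeR test). *Nuf2* was at 36.5 and 45.1 CPM in WT and at 18.4 and 21.4 CPM in *Patz1* KO (log2 fold change -1.04, adjusted p = 2.25e-06, same edgeR test). *Spc25* was at 47.8 and 43.4 CPM in WT and at 24.3 and 25.1 CPM in *Patz1* KO (log2 fold change -0.89, adjusted p = 1.96e-06, same edgeR test). In none of the 4 genes did the groups overlap. Both *Patz1* KO libraries lay below both WT libraries in 37.2% of all genes tested, and these 4 were named for their falls. The ratio of *Ndc80* to *Nuf2* within a library did overlap between the groups.

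The chromosomal passenger complex, which corrects wrong attachments at the centromere, is represented by 3 further members of this group. *Birc5* (survivin) had a log2 fold change of -0.82, *Cdca8* (borealin) of -0.75 and *Incenp*, the scaffold, of -0.56, and with *Aurkb* all 4 subunits of the complex fell. *Cenpf*, a large coiled-coil protein of the outer kinetochore, had -0.81, and *Sgol1* (shugoshin, the guardian of centromeric cohesion) had -0.79. *Cenpa*, the histone H3 variant that marks the centromere, went from 52.3 and 52.5 CPM to 27.8 and 34.5 CPM (log2 fold change -0.76).

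The inner kinetochore proteins encoded by *Cenph*, *Cenpi* and *Cenpk* are partners in 1 subcomplex, and their transcripts did not move alike. *Cenph* had a log2 fold change of -0.78 and *Cenpk*, the least abundant member with 87 counts in its lowest library, of -0.80 with a 95% interval from -1.24 to -0.35 (adjusted p = 0.00468, Benjamini-Hochberg, edgeR quasi-likelihood test). Without WT replicate 1 *Cenpk* was no longer called (-0.62, adjusted p = 0.0884). *Cenpi* (chromosome X, 134308084 to 134362639) was at 23.1 and 26.0 CPM in WT and at 23.0 and 26.7 CPM in *Patz1* KO, and the groups overlapped. Its log2 fold change was 0.012 with a 95% interval from -0.24 to 0.27 (adjusted p = 0.945, same edgeR test), and the sign turned under scaling by library size alone (-0.018). The intervals of *Cenpi* and *Cenph* did not overlap, and the difference between the 2 genes was not tested.

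The spindle motors fell as a whole group, with 9 of 9 called lower and a median log2 fold change of -0.90. *Kif20b* (chromosome 19, 34922361 to 34975745), a kinesin of cytokinesis, was at 49.7 and 62.6 CPM in WT and at 26.8 and 30.4 CPM in *Patz1* KO (log2 fold change -0.98, SE 0.12, adjusted p = 2.27e-06, Benjamini-Hochberg, edgeR quasi-likelihood test). *Kif11* (chromosome 19, 37376403 to 37421859), the Eg5 motor that pushes the spindle poles apart, was at 135 and 138 CPM in WT and at 69.2 and 72.0 CPM in *Patz1* KO. Its replicates were close, and its log2 fold change was -0.95 (SE 0.087, adjusted p = 1.09e-07, same edgeR test). *Kif4*, a chromokinesin of chromosome arms and the spindle midzone, was at 73.3 and 71.8 CPM in WT and at 39.8 and 35.7 CPM in *Patz1* KO (log2 fold change -0.94, adjusted p = 4.58e-07, same edgeR test).

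*Kif20a*, which carries the passenger complex to the midzone, was at 64.5 and 63.3 CPM in WT and at 34.5 and 32.8 CPM in *Patz1* KO (log2 fold change -0.92, adjusted p = 4.75e-07, same edgeR test). Its annotated exons share 1271 bases with *Cdc23* on the other strand, and because the strand setting of the counting is not given in the sources used here, reads of both genes could be mixed. *Cdc23* itself had a log2 fold change of -0.037 and was not called. The remaining motors were *Kif23* (-0.90) of the central spindle, the microtubule depolymerase *Kif2c* (-0.79) and *Kif18a* (-0.59), which damps chromosome oscillation. Of the motors' partners, *Tpx2*, the activator of Aurora A on the spindle, had -0.84 and *Prc1*, which bundles microtubules of the midzone, had -0.61.

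Of the condensin and chromosome genes, 8 of 9 were lower with a median log2 fold change of -0.72. *Ncaph2*, a subunit of condensin II that is not among the 42, was called higher (0.27). *Ncapg2* (chromosome 12, 116405402 to 116463731), a HEAT-repeat subunit of condensin II, showed the largest fall of all 42 genes. It was at 59.1 and 65.0 CPM in WT and at 27.0 and 27.9 CPM in *Patz1* KO, which gave a log2 fold change of -1.18 (SE 0.10, adjusted p = 4.28e-08, same edgeR test). *Smc2*, an ATPase shared by condensin I and II, was at 149 and 165 CPM in WT and at 79.9 and 81.4 CPM in *Patz1* KO (log2 fold change -0.96, adjusted p = 1.19e-07, same edgeR test). *Espl1*, the separase that opens cohesin at anaphase, was at 46.4 and 45.0 CPM in WT and at 27.0 and 26.2 CPM in *Patz1* KO (log2 fold change -0.78, adjusted p = 5.42e-06, same edgeR test).

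*Top2a* (chromosome 11, 98992943 to 99024189), the topoisomerase that untangles sister chromatids, was the most abundant of the 42 genes per length, at 125 CPM per kb in WT and 64.1 CPM per kb in *Patz1* KO. It was at 627 and 679 CPM in WT and at 334 and 336 CPM in *Patz1* KO, which gave a log2 fold change of -0.96 (SE 0.10, adjusted p = 4.48e-07, Benjamini-Hochberg, edgeR quasi-likelihood test). By contrast its relative *Top2b*, which is also expressed in cells that no longer divide, had a log2 fold change of -0.19 and was not called. The other condensin genes that fell were *Smc4* (-0.72), the second shared ATPase, *Ncapg* (-0.72) and *Ncaph* (-0.51) of condensin I, and *Ncapd3* (-0.50) of condensin II.

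*Ncapd2* (chromosome 6, 125168007 to 125191701), a HEAT-repeat subunit of condensin I, was not called. It was at 199 and 201 CPM in WT and at 201 and 187 CPM in *Patz1* KO, and the groups overlapped. Its log2 fold change was -0.045 with a 95% interval from -0.23 to 0.14 (adjusted p = 0.689, same edgeR test), and the sign turned without *Patz1* KO replicate 2 (0.0099). Its annotated exons share 472 bases with the small RNA gene *Scarna10* and with *Gm28967*, both on its own strand, so reads of those genes could be counted as *Ncapd2*. Among all members, 11 had exons that overlap another gene, and of the 31 without an overlap 29 fell with a median log2 fold change of -0.79.

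**Figure D3:**
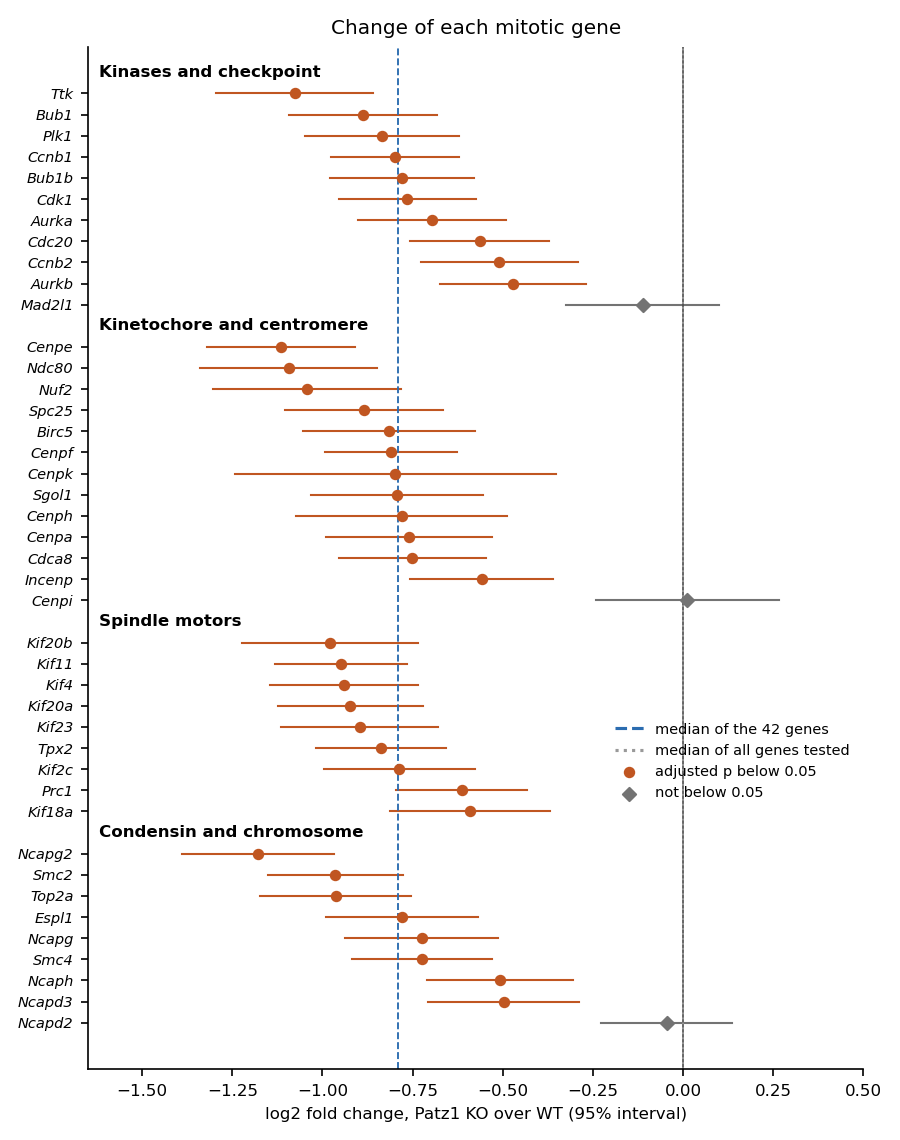
Log2 fold change of each mitotic gene, Patz1 KO over WT, with its 95% interval, grouped by role. Orange circles passed the edgeR test and grey diamonds did not, the dashed line marks the median of the 42 genes (-0.79) and the dotted line, at -0.0014, that of all genes tested. The intervals of the 3 diamonds hold 0, and none of the others does.

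Ratios between related genes were also read within each library, where the scaling of the library cancels. They are log2 ratios of CPM per kb of exon, for 12 pairs picked with the results known, and with 2 libraries against 2 the smallest two-sided p of an exact permutation test is 0.333, so none was run. In 8 of the 12 pairs the 2 groups did not overlap, and for single genes the CPM of the 2 groups did not overlap in 74.2% of all genes tested, so the count of pairs is no result on its own. The ratio of *Top2a* to *Top2b* was 0.79 and 0.81 in WT and 0.021 and 0.036 in *Patz1* KO, so both genes stood at nearly the same level per length in *Patz1* KO. For the kleisin subunits, *Ncaph* of condensin I over *Ncaph2* of condensin II, the ratio went from -0.68 and -0.63 in WT to -1.37 and -1.51 in *Patz1* KO.

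The balance between condensin I and condensin II thus had no single direction across subunits. The ratio of *Ncapg* to *Ncapg2* rose from 0.30 and 0.34 in WT to 0.75 and 0.80 in *Patz1* KO, and that of *Ncapd2* to *Ncapd3* from 2.18 and 2.04 to 2.56 and 2.57, both toward condensin I, whereas the kleisins moved toward condensin II. Smaller shifts were seen for *Smc4* over *Smc2* (0.78 and 0.80 in WT, 0.98 and 1.08 in *Patz1* KO) and for *Aurka* over *Aurkb* (-0.11 and -0.11 in WT, -0.36 and -0.32 in *Patz1* KO). For *Ccnb1* over *Ccnb2* the ratio was 1.38 and 1.22 in WT and 1.09 and 0.92 in *Patz1* KO. The ratio of *Cdk1* to *Ccnb1* overlapped between the groups, at -1.92 and -1.82 in WT and -1.82 and -1.85 in *Patz1* KO.

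**Figure D4:**
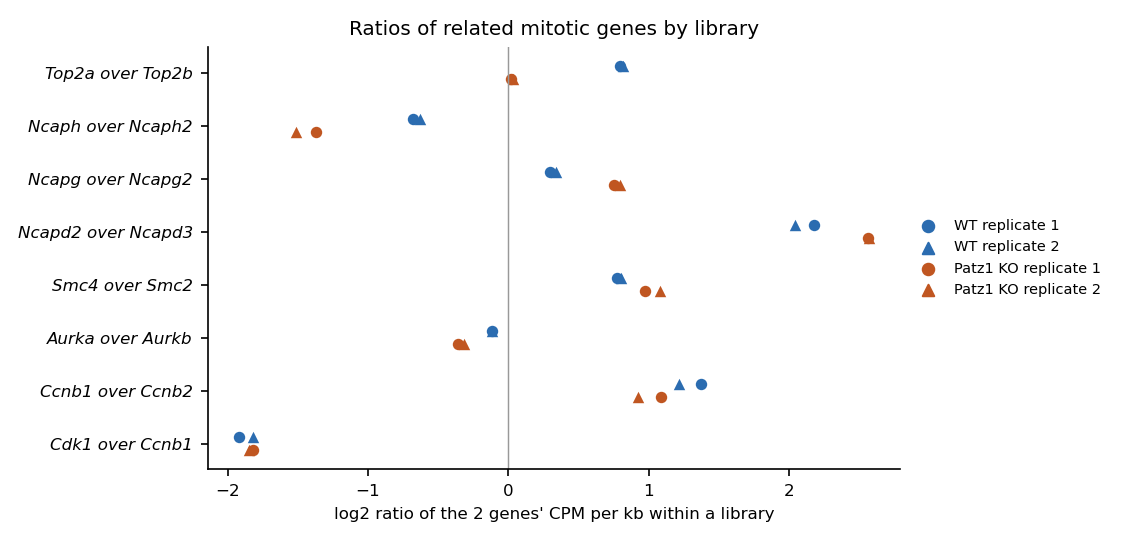
Log2 ratio of the CPM per kb of 2 related genes within each library, for 8 of the 12 pairs. Points are libraries, WT in blue and Patz1 KO in orange. Blue and orange points are apart in the upper 7 pairs, and overlap for Cdk1 over Ccnb1.

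Other genes of mitosis were read from lists chosen by function. Among all genes tested, 23.8% were called lower and 24.1% higher. Of 33 further kinetochore genes tested, 25 were lower and 1 was higher, with a median log2 fold change of -0.56. *Casc5* (KNL1), the scaffold to which BUB1 binds, had -0.91, and *Spc24*, the partner of *Spc25*, had -0.88. *Zwint*, a partner of KNL1, was the gene that rose, from 163 and 144 CPM in WT to 189 and 205 CPM in *Patz1* KO (log2 fold change 0.36, adjusted p = 0.00375, Benjamini-Hochberg, edgeR quasi-likelihood test), and without WT replicate 2 no gene of this list was called higher. Of 37 further spindle and cytokinesis genes, 32 were lower and 0 higher (0 with DESeq2 too), with a median of -0.65. Here the smallest p-values were those of the spindle proteins *Ckap2l* (-1.13) and *Tacc3* (-0.96) and of the spindle kinesin *Kif15* (-0.95).

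Regulators of mitotic entry followed the same direction, with 12 of 16 lower, 0 higher and a median of -0.61, among them the kinases *Melk* (-0.92) and *Nek2* (-0.89) and cyclin A2, *Ccna2* (-0.75). The APC/C and its partners did not move as a list: 5 of 18 genes were lower and 1 was higher, with a median of -0.021. The lower ones included *Ube2c* (-1.02), its ubiquitin-conjugating enzyme, and the subunits *Cdc27* (-0.88) and *Anapc1* (-0.65), while *Anapc2* was higher (0.26), a call that ended without WT replicate 1, without WT replicate 2 or without *Patz1* KO replicate 1, and also with DESeq2 or with library size alone. Among 19 genes of the MuvB, FOXM1, E2F and retinoblastoma families, 12 were lower and 2 higher, with a median of -0.35. The atypical E2F repressors *E2f8* (12.9 and 13.3 CPM in WT, 2.72 and 2.68 CPM in *Patz1* KO, log2 fold change -2.27) and *E2f7* (-1.18) fell most. Of the pocket proteins, which hold back E2F targets, *Rbl2* (0.79) and *Rb1* (0.25) were higher and *Rbl1* (-0.68) was lower. With WT replicate 1, WT replicate 2 or *Patz1* KO replicate 2 left out, 1 gene of this list was higher, and without WT replicate 2 the number of lower genes was 6.

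Genes of families related to the members, many of which act outside mitosis, were read next. Of 20 kinesins listed for transport, 2 were lower and 11 higher, with a median log2 fold change of 0.23. The smallest p-values were those of *Kif26a* (357 and 324 counts in WT, 2061 and 1348 counts in *Patz1* KO, log2 fold change 1.90), *Kif26b* (0.94) and the light chain *Klc1* (0.71), of which the first 2 are atypical kinesins that do not walk along microtubules. The lower ones were *Kif5b* (-0.41) and *Kif1c* (-0.29), and without WT replicate 2 none of the 20 was called lower and 6 higher. A list of 8 other SMC, topoisomerase and condensin II genes had a median of -0.23. Of these, 4 were lower, *Top1* (-0.43) and *Smchd1* (-0.39) among them, and 2 were higher, the cohesin ATPase *Smc1a* (0.33) and the condensin II kleisin *Ncaph2* (0.27). Without WT replicate 1 this became 2 lower and 0 higher.

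**Figure D5:**
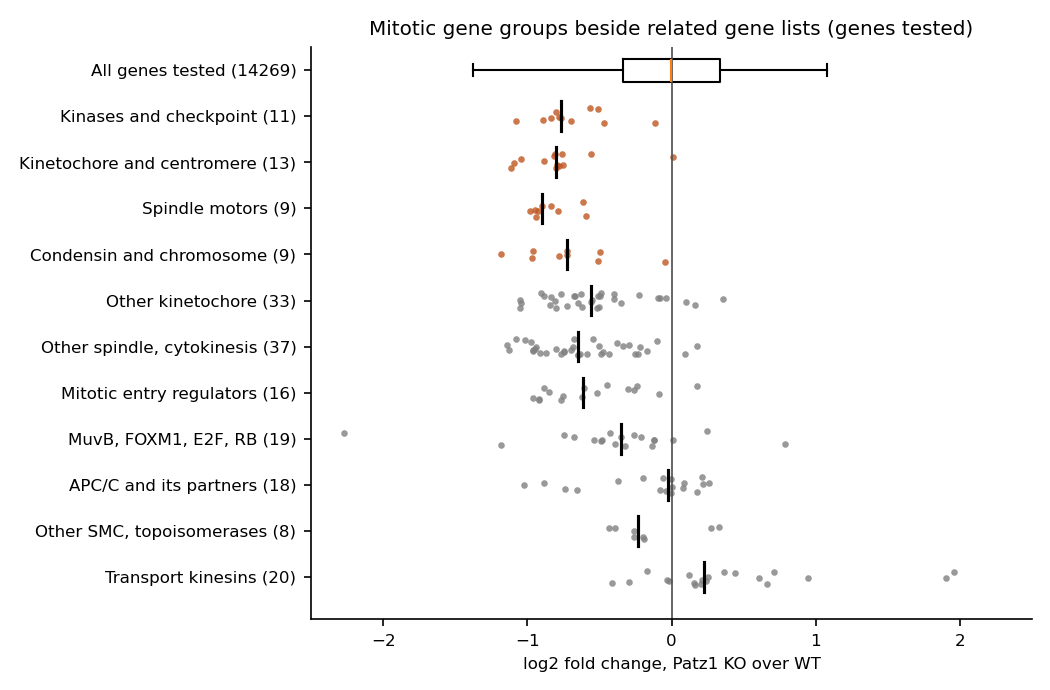
Log2 fold change, Patz1 KO over WT, of the genes of each role group (orange) and of each related list (grey), with the number of genes tested in brackets and the median as a black bar. The box for all genes tested spans the quartiles and its whiskers the 5th to 95th percentiles. The medians of the 4 role groups lie between -0.90 and -0.72, and that of transport kinesins at 0.23.

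CHR letters were found in the windows of 67.6% of the members, beside 13.9% of all genes tested that had a window. The share was 43.5% for the further kinetochore genes and 54.5% for the further spindle genes. Of the regulators of mitotic entry, of which 12 of 16 were lower, 1 of 10 with a window held the letters. The share was 42.9% for the MuvB, FOXM1, E2F and retinoblastoma families. It was 23.5% for APC/C genes and 13.3% for transport kinesins, and 2 of the 8 other SMC, topoisomerase and condensin II genes held the letters. These shares rest on between 8 and 37 genes with a window per list and were not tested.

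Markers of the cell types that such cultures can hold moved too. Their counts stand beside 24.1% of all genes tested called higher and 23.8% called lower. The summed level of 13 genes of postmitotic neurons was 6545 and 6110 CPM in WT and 10226 and 9498 CPM in *Patz1* KO, where 7 of them were higher and 1 lower. *Tubb3* (log2 fold change 0.53), *Dcx* (1.01) and *Nefl* (1.33) were the most abundant of them and carried most of the rise in the sum. *Map2*, *Mapt*, *Elavl3*, *Elavl4* and *Gap43* were not called, and *Snap25* was lower (-0.29). The summed level of 8 MN genes was 644 and 600 CPM in WT and 1032 and 940 CPM in *Patz1* KO, with 7 higher and 0 lower. *Isl1* was not called, at 132 and 134 CPM in WT and 112 and 122 CPM in *Patz1* KO (log2 fold change -0.19). Of 12 neural progenitor genes, *Nkx2-2* (log2 fold change 1.21), *Sox1* (1.03), *Fabp7* (0.68), *Nkx6-1* (0.47) and *Sox3* (0.47) were higher and *Pax6* (-1.05), *Hes5* (-0.99), *Nes* (-0.72) and *Notch1* (-0.31) were lower, so the list had no common direction. The sum of the 12 was 2422 and 2295 CPM in WT and 2347 and 2356 CPM in *Patz1* KO. Summed levels of the mitotic genes and of neuron genes thus moved in opposite directions between the groups, while the sum over progenitor genes overlapped. That sum is carried by *Vim*, which was not called, *Nes*, which fell, and *Fabp7*, which rose.

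Most markers of non-neural cells that were called were lower in *Patz1* KO. The sum of 8 mesenchyme and neural crest genes was 155 and 171 CPM in WT and 27.8 and 28.0 CPM in *Patz1* KO (6 lower, 2 higher). *Col3a1* was the most abundant of them in WT (mean 94.8 CPM), and the crest genes *Foxd3* (log2 fold change 2.51) and *Sox10* (0.91, adjusted p = 0.0489 in the same edgeR test) were the higher ones. The sum of 8 endoderm genes was 70.3 and 78.1 CPM in WT and 12.5 and 13.3 CPM in *Patz1* KO (6 lower, 0 higher). The sum of endothelial and blood genes was 9.26 and 10.8 CPM in WT and 5.03 and 3.04 CPM in *Patz1* KO. Of the 4 tested genes 3 were lower and 0 higher, and the hemoglobin gene *Hba-a1* had no count in any library. The sum of 7 pluripotency genes was 9.40 and 12.3 CPM in WT and 6.02 and 7.99 CPM in *Patz1* KO, with 2 of the 4 tested genes lower. The part of any of these cell types in the fall of the mitotic genes was not tested.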

How the data were processed

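The authors sequenced ribosome-depleted, stranded total RNA of 2 WT and 2 *Patz1* KO MN cultures and deposited raw counts per gene symbol on mm10. The submitters' processing notes list TopHat2 2.1.1, Bowtie2 2.3.1, featureCounts 1.6.2 and DESeq2, and the annotation and strand setting are not given in the sources used here. The quasi-likelihood test of edgeR 4.0.16 (limma 3.58.1, R 4.3.3) was run on TMM-normalized counts after filterByExpr (minimum count 10), which kept 14269 genes, with Benjamini-Hochberg adjustment over all of them. Standard errors were derived from the F statistic, and intervals from the matching t quantile. Tests were checked on simulated data in which far fewer genes changed than were called here, so that check does not cover this setting. Exons, lengths (GENCODE M21 basic, merged) and positions are on GRCm38, and promoters are RefSeq windows.

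The members and lists were chosen with earlier results of these data known. By rule, the text gives in full the 4 largest called falls per role group, every member not called, and per list the 3 smallest p-values and up to 3 calls against the majority. One gene that this rule names is not reported here. The pairs, and *Top2b* and *Cdc23*, were chosen after their values were seen. Alternatives were DESeq2 1.42.0 (Wald test, size factors), other scalings, filters and thresholds, robust estimation, the replicate number as a block, and each library left out. Replicates were independent differentiations. The total count per library went from 14769104 to 23881522, and the reads carry no molecular identifiers, so depth speaks to counting error only.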

Additional observations from a re-analysis of the deposited data

How the results depend on the processing

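The count of mitotic genes lower in *Patz1* KO was 39 under every alternative except a minimum absolute log2 fold change of 1 (0 of 42, and 0 in each role group) and single-library omissions (38 to 40), and their median went from -0.81 to -0.77 when single libraries were left out. That minimum also left 444 genes lower and 274 higher in all, an adjusted p of 1 for *Patz1* (-1.04), 1 lower gene in the MuvB list, 1 higher transport kinesin, and 0 calls in the other lists. Among all genes, 2444 were lower and 2672 higher with DESeq2, and 2175 to 3831 were lower with single libraries left out. The replicate numbers did not pair the libraries (correlation of deviations 0.041), and with the replicate block all 42 calls were as before, 3651 genes were lower and 2 APC/C genes were higher.

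The sign of *Cenpi* turned under library size alone (-0.018) and, with single libraries left out, its log2 fold change went from -0.090 to 0.13, that of *Mad2l1* from -0.24 to 0.020 and that of *Ncapd2* from -0.093 to 0.0099. APC/C genes called higher numbered 0 under library size alone, DESeq2 and an adjusted p below 0.01, and 3 without a filter, and 1 MuvB gene was called higher under the first 3 of these settings. With DESeq2, and at an adjusted p below 0.01, 1 transport kinesin was lower, and that threshold left 2 SMC and topoisomerase genes lower and 1 higher. With single libraries left out, calls ranged from 0 to 3 higher for kinetochore, 0 to 1 for spindle and for entry, 0 to 3 for APC/C, 6 to 12 lower and 1 to 2 higher for MuvB, 0 to 3 lower and 6 to 14 higher for transport, and 2 to 5 lower and 0 to 2 higher for SMC genes. The cause of these shifts was not tested. With 2 libraries per group, fold changes of genes with few counts such as *Cenpk* are the least certain.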
